A study of Mus musculus with 6 samples.

Results

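The genes described here are Sox8, Sox9 and Sox10, which make up the SoxE group, and Sry, the sex-determining gene of the Y chromosome. Each was taken by its symbol from probe sets annotated to exactly 1 gene, and each had 1 such probe set, so 4 genes of 19937 measured are described through 4 probe sets. RNA came from fetal gonads of mouse embryos on a mixed C57BL6/J and 129 background at E13.5 (days of embryonic development), dissected away from the mesonephros. Wild-type gonads were measured on 3 arrays (numbers 1, 2 and 5), each a pool of 6 gonads. Gonads of genotype Sox9flox/flox; Sf1:creTr/+, called the Sox9 mutant, were measured on another 3 arrays (numbers 3, 4 and 6), each a pool of 12. In the mutant, both Sox9 alleles are floxed and a Cre transgene under regulatory sequence of Sf1 (Nr5a1), which is active in somatic cells of the gonad, recombines them there. Cells that Cre does not reach keep Sox9, and no group carried the Cre or the floxed alleles alone. The labels name no litters, and p-values therefore reflect just the variation among these pools, part of which can be technical.

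SRY and the SOX proteins bind DNA through an HMG box, a domain that bends the helix. In the XY gonad SRY acts briefly in the precursors of the supporting cells and switches on Sox9, and SOX9 then keeps its own gene active and drives the cells to become Sertoli cells. Sox8 and Sox10 come on in the same cells after Sox9, and SOX8 can take over part of the work of SOX9 once the testis has formed. Sry falls silent in Sertoli cells after SOX9 has risen. The comparison of mutant with wild type therefore asks how far Sox9 RNA was lost, whether Sox8 or Sox10 RNA was higher where it was reduced, and whether Sry RNA persisted.

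In the mutant gonads, Sox9 and Sox8 fell and Sry rose, while Sox10 was lower on each mutant array but did not pass the test. The limma test with Benjamini-Hochberg adjustment over 28187 probe sets called 2 of the 4 genes lower and 1 higher. Of all 19937 genes, 6.94% were called in either direction, 4.3% lower and 2.64% higher, and of all probe sets 5.72%. In each of the 4 genes the 3 mutant values did not overlap the 3 wild-type values, as was the case for 28.7% of all genes (16.6% with the mutant lower and 12.1% with it higher). With 3 arrays against 3, the exact permutation test of a single gene cannot go below p = 0.1 (2-sided), and it gave 0.1 for each of the 4. In a whole gonad, fewer cells of a type and less RNA per cell cannot be told apart.

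**Figure D1:**
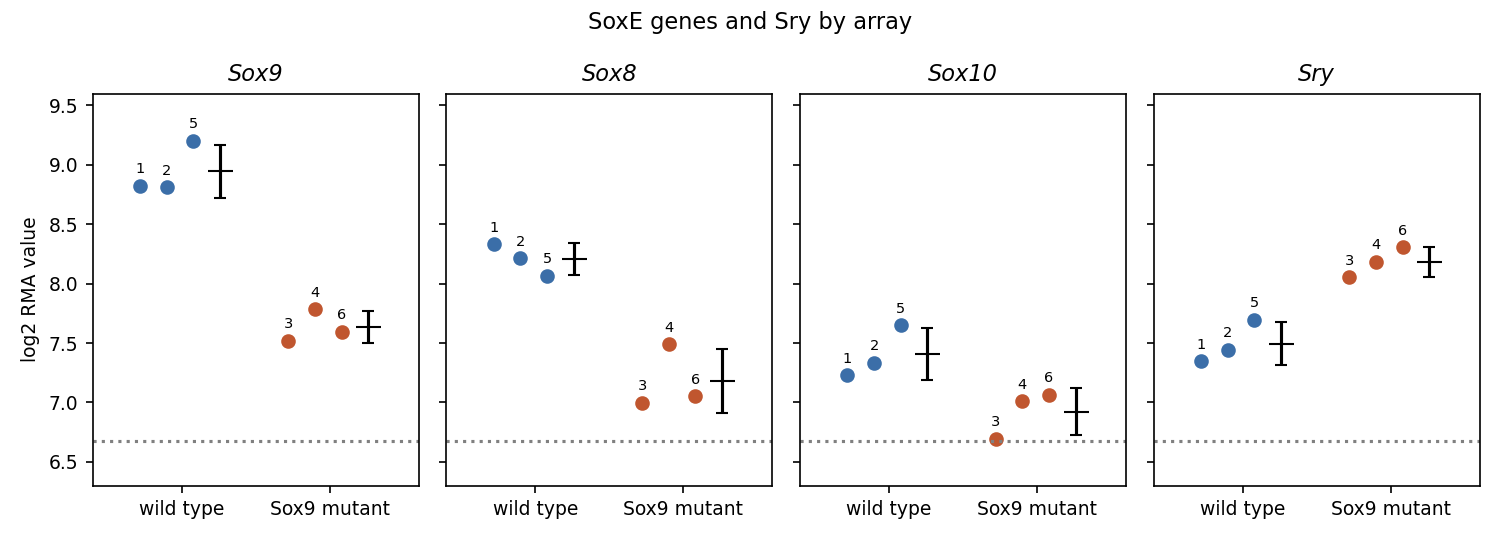
Values of Sox9, Sox8, Sox10 and Sry on each array (log2 RMA value; points carry the array number, bars show the mean and SD of 3 arrays, and the dotted line is the background mark of 6.67). The groups do not overlap in any panel, and Sry is the gene whose mutant values, 8.05 to 8.31, lie above wild type.

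Sox9, the target of the floxed alleles and the transcription factor that sets Sertoli cell fate, gave 8.82, 8.81 and 9.20 log2 on wild types 1, 2 and 5. On mutant arrays 3, 4 and 6 it measured 7.52, 7.78 and 7.60. Every mutant array was lower than every wild-type array, by a mean of -1.31 log2 with a 95% interval from -1.63 to -0.99 (limma adjusted p = 0.00124). On this scale the mutant held 40.3% of the wild-type value. The remaining signal was 0.96 log2 above the background mark of 6.67, set at the 95th percentile of mean values over probe sets for odorant and vomeronasal receptors. Where the probe set lies relative to the floxed part of the gene is not given in the sources used here, and its part in the size of the fall was not tested. Of all genes, 0.592% had a change as low or lower.

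Sox8, which acts beside SOX9 in Sertoli cells, had log2 values of 8.33, 8.22 and 8.07 on wild types 1, 2 and 5. The values on mutant arrays 3, 4 and 6 were 6.997, 7.49 and 7.05. The mutant array closest to wild type was number 4, as it was for Sox9. Sox8 changed by -1.02 ± 0.15 log2 (SE; 95% interval -1.37 to -0.68; limma adjusted p = 0.0056), a 2.03-fold fall. On none of the 3 mutant arrays, where Sox9 signal was reduced but still above background, was Sox8 above its wild-type values. Its call held in each of 16 other settings of the analysis, with limma adjusted p from 0.00157 to 0.0372.

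Sox10, best known from neural crest and glia and active at a low level in fetal Sertoli cells, gave 7.23, 7.34 and 7.65 log2 on wild types 1, 2 and 5. It measured 6.70, 7.01 and 7.06 on mutant arrays 3, 4 and 6, where array 3 lay next to the background mark. Its difference of -0.48 log2 (95% interval without adjustment -0.82 to -0.14) missed the threshold in the limma fit (adjusted p = 0.115). The unadjusted interval holds no value above 0, and no mutant array was above any wild-type array. The labels name no batch. With numbers 5 and 6 treated as a batch, a grouping assumed from the array numbers alone, the same difference passed (limma adjusted p = 0.0407). That was 1 of 16 other settings. RMA compresses differences close to background, so the size of the Sox10 difference may be understated. Sox8 in the mutant (6.997 to 7.49) and Sry in wild type (7.35 to 7.70) lay at similar levels, so this limit can touch them too.

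Changes of the 3 SoxE genes were set against each other within arrays, as 3 pairs. The change of Sox9 minus that of Sox8 was -0.29 log2, with a 95% interval from -0.89 to 0.31 (exact permutation p = 0.3), so a difference between the 2 falls was not resolved. That value was -0.011 without wild type 5 and mutant 4. For Sox9 against Sox10 the value was -0.83 log2 (interval -1.10 to -0.56; exact permutation p = 0.1, the smallest possible). For Sox8 against Sox10 it was -0.54 log2 (interval -1.23 to 0.15; exact permutation p = 0.2). Adjusted over the 3 pairs, each p is 0.3. The part of unequal compression near background in the gaps to Sox10 was not tested.

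Sry, whose protein starts testis development by turning on Sox9, gave 7.35, 7.44 and 7.70 log2 on wild types 1, 2 and 5. It measured 8.05, 8.19 and 8.31 on mutant arrays 3, 4 and 6. The lowest mutant array exceeded the highest wild-type array. Sry rose by 0.69 ± 0.13 log2 (SE; 95% interval 0.39 to 0.98; limma adjusted p = 0.0181), 1.61-fold. Wild-type arrays lay above the background mark too. No array was labelled as lacking Sry, so what this probe set reads without Sry RNA is not known. The call was lost without wild type 1 (limma adjusted p = 0.0879), wild type 2 (0.0697), mutant 4 (0.059), or wild type 5 and mutant 4 together (0.0584), with differences of 0.61 to 0.78 log2.

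The 250 bases before the start of Sry and of Sox8 are shown because the RNA of both genes changed. They are from RefSeq on GRCm38.p6, whose promoter table gave these 2 of the 4 genes, and are written 5′ to 3′ on the strand of the gene. Capitals mark matches to AACAAT, the core bound by SRY and SOX proteins, or to ACAAAG, a related core that TCF/LEF factors share, each searched on both strands (reverse complements ATTGTT and CTTTGT). The Sry window, chrY:2663659-2663908 on the minus strand, held 1 match to CTTTGT, flanked by repeats of CTGT, and the Sox8 window, chr17:25570687-25570936 on the minus strand, held no match. Of 32851 promoter windows of this length, 9.42% held AACAAT and 16.5% ACAAAG on either strand, and a match is a description of letters, not of binding.
Sry: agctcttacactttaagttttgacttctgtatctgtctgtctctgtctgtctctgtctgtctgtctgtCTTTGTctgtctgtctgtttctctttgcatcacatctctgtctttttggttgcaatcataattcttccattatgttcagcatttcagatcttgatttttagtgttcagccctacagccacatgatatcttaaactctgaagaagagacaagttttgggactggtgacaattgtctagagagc
Sox8: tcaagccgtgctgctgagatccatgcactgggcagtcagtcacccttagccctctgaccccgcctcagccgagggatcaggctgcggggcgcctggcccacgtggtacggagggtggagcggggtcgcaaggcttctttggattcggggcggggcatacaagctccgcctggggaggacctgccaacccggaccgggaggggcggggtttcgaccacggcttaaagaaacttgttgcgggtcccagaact

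Because the labels name no embryo sex, other sex-linked genes were read beside Sry. Of 7 measured Y-linked genes, 4 lay above background. Eif2s3y, a translation initiation subunit, measured 9.77, 9.77 and 9.56 log2 on wild type 1, 2 and 5 and 9.59, 9.73 and 9.65 on mutants 3, 4 and 6. Uty, a histone demethylase relative, had its lowest value on mutant 3 (8.02) and its highest on mutant 6 (8.85), with wild type at 8.33 to 8.51. Kdm5d and Uba1y differed by -0.13 and 0.19 log2, and neither they nor Eif2s3y and Uty passed (limma adjusted p from 0.506 to 0.961). Y-linked genes with X-linked relatives, such as Uty, Kdm5d and Uba1y, may share signal with them, and Uba1y had further, dimmer probe sets. One Y-linked gene, Zfy1, a zinc finger gene, rose by 0.67 log2 (limma adjusted p = 0.0191), from values below the background mark in both groups, and it lost the call in 6 of 15 other settings. Relative to the mean of the 4 brighter Y-linked genes, a comparison added after their values were seen, Sry was higher by 0.69 log2 in the mutant (interval 0.24 to 1.14; exact permutation p = 0.1, the smallest possible).

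Xist, the RNA that coats the inactive X chromosome of XX cells, was 5.34 to 5.48 log2 on the wild-type arrays and 4.997 and 4.97 on mutants 4 and 6, all below background. On mutant 3 it was 7.29, above background. Mutant 3 also had the lowest Sry value of the mutant arrays, the lowest Uty value of all 6, and the lowest values of Sox9, Sox8 and Sox10. The other Y-linked genes above background were not lowest there. Uba1y had its highest value of all 6 on mutant 3 (10.18). Eif2s3y was lowest on wild type 5 (9.56, against 9.59 on mutant 3), and Kdm5d was 7.98 on mutants 3 and 4 alike. Without mutant 3 the differences were -1.26 for Sox9, -0.93 for Sox8, -0.37 for Sox10 and 0.75 log2 for Sry, and the calls of Sox9, Sox8 and Sry held (limma adjusted p = 0.00833, 0.0277 and 0.0384). The part of Xist-expressing cells in the values of mutant 3 was not tested.

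**Figure D2:**
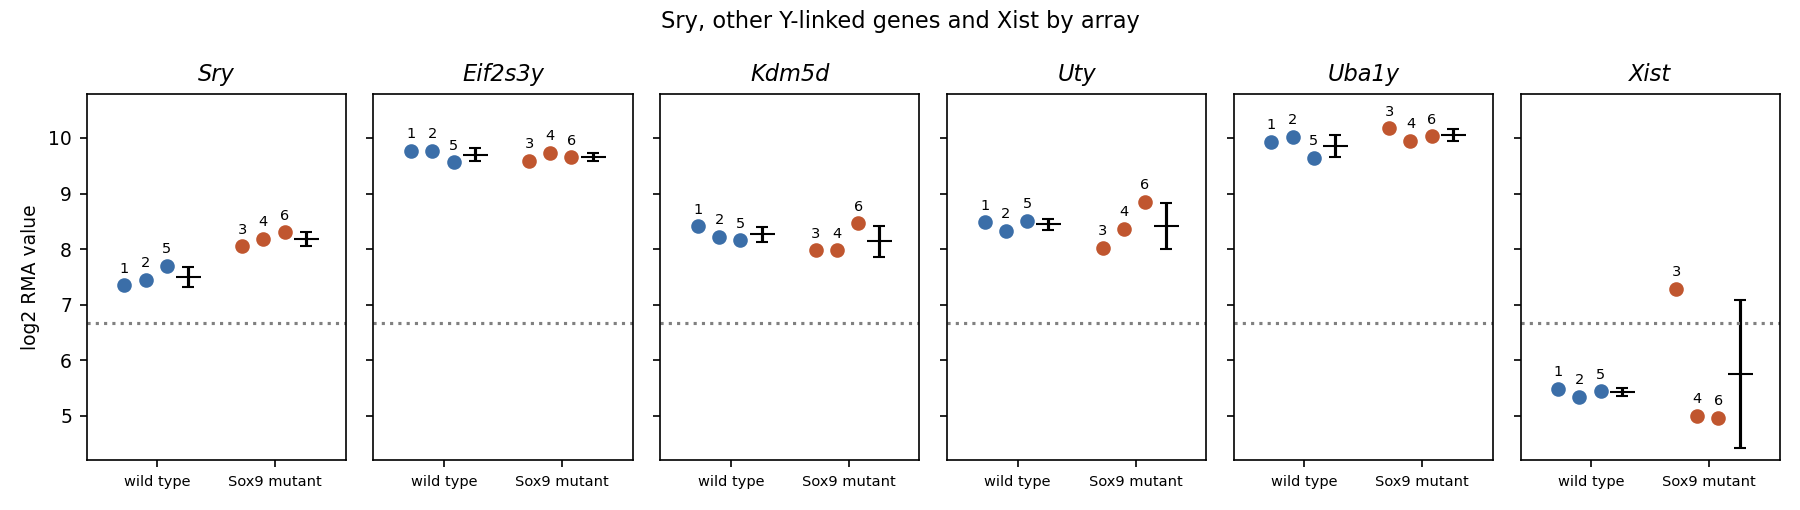
Sry beside 4 Y-linked genes above background and Xist on each array (log2 RMA value; numbers are array numbers, bars are mean and SD of 3 arrays, dotted line at the background mark of 6.67). Sry is higher in the mutant, the other Y-linked genes overlap between groups, and Xist stands at 7.29 on mutant 3 alone.

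Sertoli cell genes fell in the mutant. All 12 genes of a list of Sertoli cell genes, several of them known targets of SOX9 or SRY, were called lower (12 at an unadjusted p under 0.05), against 4.3% of all genes, with a median change of -2.11 log2 against 0.0041 over all genes. The list was drawn up with earlier results of these arrays known, so its count is no independent evidence of direction. Amh, the hormone that removes the Müllerian ducts and a direct target of SOX9, measured 11.41, 11.09 and 11.20 log2 on wild type 1, 2 and 5 and 5.91, 8.91 and 5.89 on mutants 3, 4 and 6. Its difference of -4.33 log2 (limma adjusted p = 0.00654) lost its call with eBayes with trend and robust (adjusted p = 0.0802). Cbln4 encodes a secreted cerebellin, and the gene is a known target of SRY and SOX9. It measured 9.52, 9.24 and 9.77 in wild type and 7.34, 7.84 and 7.50 in the mutant, a difference of -1.95 log2 (limma adjusted p = 0.000561).

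The remaining Sertoli genes changed by between -4.14 log2 (Cst9, a cystatin) and -1.01 log2 (Etv5, an ETS factor). Vnn1, a pantetheinase of Sertoli cells, measured 9.26 to 9.63 on the wild-type arrays and 6.94, 7.89 and 6.80 on mutants 3, 4 and 6. Hsd17b3 lost its call with eBayes with trend and robust (adjusted p = 0.0518) and Etv5 without wild type 5 and mutant 4 (adjusted p = 0.0837). Of these 12 genes, 7 had a window in the promoter table and 2 held a match, Cbln4 to ATTGTT and Cst9 to CTTTGT. The matches start 242 and 152 bases before the gene start. Over all windows, 9.42% held AACAAT and 16.5% ACAAAG on either strand, so such a count is not read as a result about these genes. A match again describes letters, not binding. The Cbln4 window, chr2:172043467-172043716 on the minus strand of GRCm38.p6, is shown because that gene fell on every mutant array and is a known target of SRY and SOX9.
Cbln4: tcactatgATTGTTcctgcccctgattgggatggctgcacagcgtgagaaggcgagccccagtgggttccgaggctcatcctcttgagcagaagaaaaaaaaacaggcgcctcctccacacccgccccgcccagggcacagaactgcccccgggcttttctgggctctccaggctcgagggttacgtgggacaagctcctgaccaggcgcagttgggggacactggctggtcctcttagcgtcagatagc

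Mutant array 4 stood apart from the other mutants in the Sertoli genes. It had the highest value of the mutant arrays in 11 of the 12, Etv5 being the exception, with medians of -1.59 log2 against the wild-type mean on mutant 4, -2.55 on mutant 3 and -2.35 on mutant 6. Sox9 stood at -1.16 against its wild-type mean on mutant 4, compared with -1.42 on mutant 3 and -1.35 on mutant 6. Sox8 stood at -0.71 on mutant 4, against -1.21 and -1.15. Sox10 did not follow this order, with -0.71, -0.39 and -0.34 log2 against its wild-type mean on mutants 3, 4 and 6. Nor did Sry, with 0.56, 0.69 and 0.81 log2 above its wild-type mean on the same arrays. Markers of Leydig cells, the androgen-producing cells of the fetal testis, moved with the Sertoli genes. All 4 measured (Cyp11a1, Cyp17a1, Star and Hsd3b1) were called lower, against 4.3% of all genes, with a median of -3.81 log2. Each was highest among the mutants on mutant 4. Their part in the SoxE values was not tested. Without mutant 4 the difference was -1.39 for Sox9 and -1.18 log2 for Sox8.

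**Figure D3:**
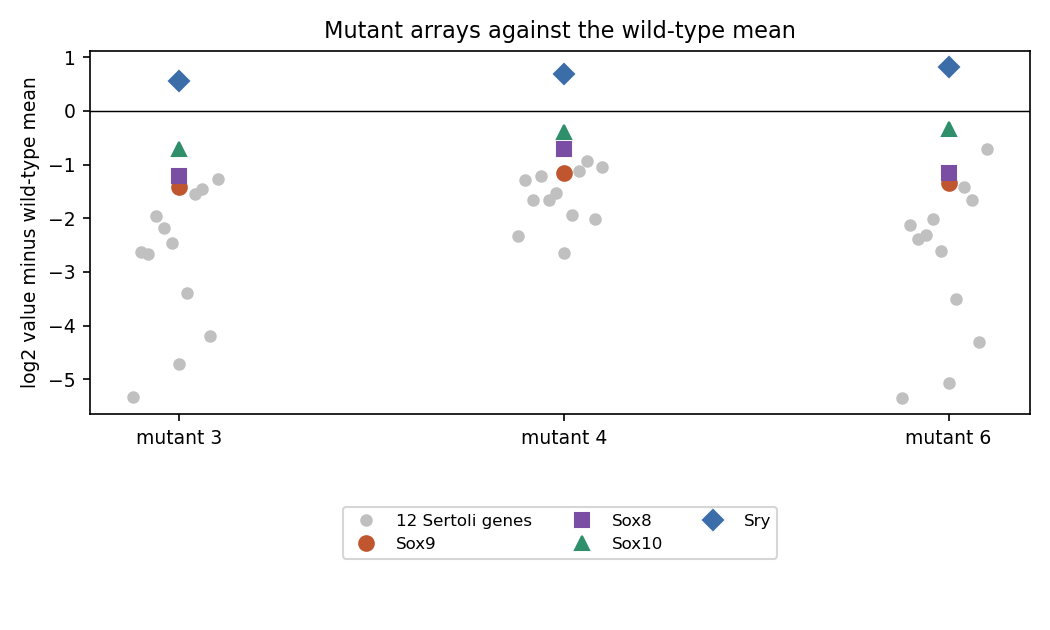
Values on mutant arrays 3, 4 and 6 minus the wild-type mean of each gene (log2), for Sox9, Sox8, Sox10, Sry and 12 Sertoli cell genes (grey). The Sertoli genes lie closer to 0 on mutant 4, with Sox9 at -1.16 and Sox8 at -0.71 there, while Sry is above 0 on all 3.

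Of 6 genes that keep Sox9 active, 1 rose and 1 fell, where 2.64% of all genes were called higher and 4.3% lower. Ptgds, a prostaglandin D synthase whose product supports SOX9 and which is also in the Sertoli list, changed by -2.02 log2 (limma adjusted p = 0.00398). Fgfr2, the receptor for FGF9, rose from 9.28, 9.17 and 8.99 log2 on wild type 1, 2 and 5 to 9.94, 9.80 and 9.996 on mutants 3, 4 and 6 (0.77 log2; limma adjusted p = 0.00712). Its ligand Fgf9 differed by -0.53 log2 (limma adjusted p = 0.0732), and passed in 3 of 16 other settings, with adjusted p as low as 0.0195. Dmrt1, which protects the male fate of Sertoli cells after birth, differed by -0.23 log2 (adjusted p = 0.406). The prostaglandin receptors Ptgdr and Ptgdr2 had both means below the background mark.

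Among 15 measured genes that act upstream of Sry in the early gonad, 4 rose, 1 fell and 10 did not pass, with a median of 0.08 log2, where 2.64% of all genes were called higher and 4.3% lower. Emx2, a homeobox gene of the coelomic epithelium, measured 7.64, 7.81 and 7.70 log2 on wild type 1, 2 and 5 and 9.19, 8.95 and 9.83 on mutants 3, 4 and 6. It rose by 1.61 log2 (limma adjusted p = 0.00252) and passed in every other setting. Kdm3a, a histone demethylase that permits Sry expression, rose by 0.80 log2 (limma adjusted p = 0.0101, and 0.0688 without wild type 5 and mutant 4). Lhx9 and Wt1, both needed to form the gonad, rose by 0.76 and 0.57 log2 (limma adjusted p = 0.0149 and 0.0239), and Cited2 fell by 0.52 log2 (0.0401). These last 3 calls were lost in 5, 7 and 8 of 16 other settings, among them without wild type 2, wild type 5 or mutant 3 for each.

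The other 10 upstream genes did not pass in the fit as reported. Six4, a homeobox gene that acts on Sry, had the largest difference among them, with 9.03, 8.72 and 8.76 log2 on wild type 1, 2 and 5 and 7.68, 8.18 and 8.66 on mutants 3, 4 and 6. The groups did not overlap, and the difference of -0.66 log2 (limma adjusted p = 0.137) passed in 2 of 16 other settings, without mutant 6 and with numbers 1 to 4 alone (adjusted p as low as 0.0214). The insulin family receptors Igf1r and Insr differed by -0.38 and -0.12 log2 and the kinase Map2k6 by -0.27 log2. Nr5a1, which together with WT1 and GATA4 activates Sry and whose regulatory sequence drives the Cre, measured 10.57, 10.46 and 10.28 log2 in wild type and 10.52, 10.58 and 10.17 in the mutant. Gata4 differed by 0.13, its cofactor Zfpm2 by -0.18, the chromatin factor Cbx2 by 0.08 and the kinase Map3k4 by 0.15 log2 (limma adjusted p from 0.508 to 0.971 with Nr5a1). Gadd45g, which acts above Map3k4, differed by 0.35 log2 (adjusted p = 0.204).

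Genes of the ovarian side, which oppose Sox9 or follow its absence, were higher. Of 7 such genes 6 rose and Ctnnb1, the transcript of beta-catenin, did not pass (-0.11 log2, limma adjusted p = 0.697), where 2.64% of all genes were called higher. Foxl2, a repressor of Sox9 in granulosa cells, measured 7.10, 7.05 and 7.16 log2 on wild type 1, 2 and 5 and 8.37, 8.45 and 8.24 on mutants 3, 4 and 6. Rspo1 and Wnt4, which activate beta-catenin signalling, rose by 1.41 and 1.12 log2 (limma adjusted p = 0.000506 and 0.000831). Nr0b1, an antagonist of SRY action when in excess, rose by 1.04 log2 (limma adjusted p = 0.0339), a call lost without wild type 1, wild type 2, mutant 4 or wild type 5 and mutant 4 together, or with all rows tested (adjusted p up to 0.141). Fst and Runx1 rose by 3.62 and 1.93 log2. This list too was drawn up with earlier results known.

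**Figure D4:**
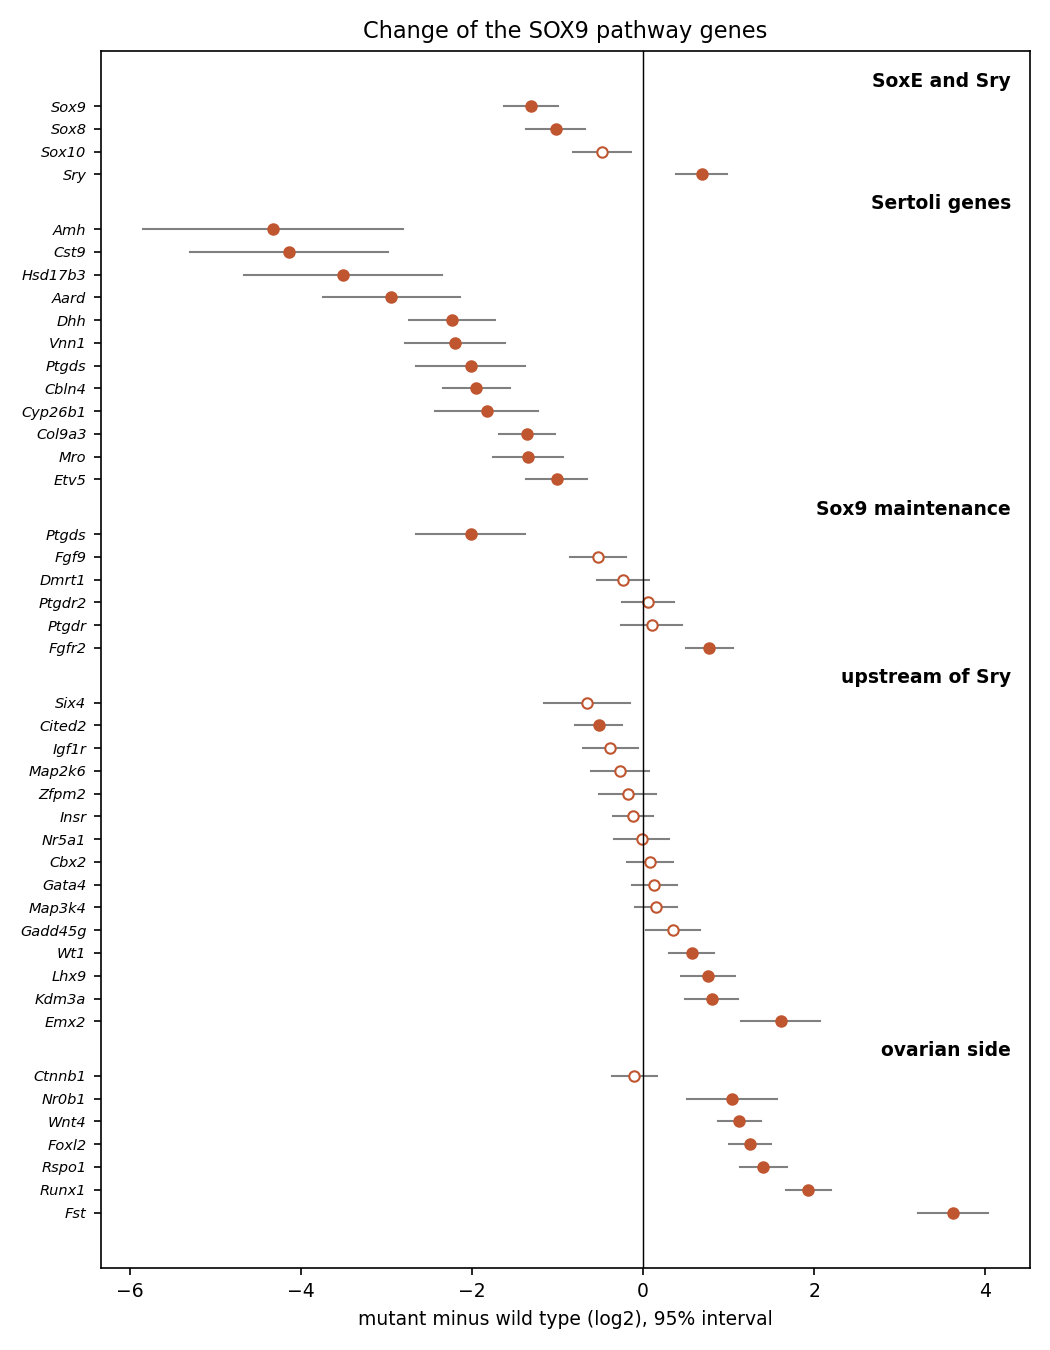
Mutant minus wild type (log2) with 95% intervals for the 4 genes and for lists of Sertoli genes, genes that maintain Sox9, genes upstream of Sry and genes of the ovarian side; filled points passed the limma threshold of 0.05. Sertoli genes lie left of 0 and 6 of 7 ovarian genes right of it, with Sox9 at -1.31 and Sry at 0.69.

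Other tissues express SoxE genes, and their markers were read for that reason. Wild type 5, which had the highest Sox9 (9.20), Sox10 (7.65) and Sry (7.70) and the lowest Sox8 (8.07) of the wild types, also had the highest value of all 7 measured liver genes, with Afp at 11.26 and Alb at 11.42 log2 against 5.64 to 6.06 on wild types 1 and 2. The summed liver level was 12.85 log2 there and 9.19 to 9.48 on the other 5 arrays. Without wild type 5 the differences were -1.19 for Sox9, -1.09 for Sox8, -0.36 for Sox10 and 0.79 log2 for Sry, with limma adjusted p of 0.00476, 0.0141, 0.275 and 0.0193.

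Neural crest and glial markers, relevant to Sox10, had 1 of 9 measured genes called lower. Over all genes, 4.3% were called lower and 2.64% higher, the background for each count in this paragraph. Of the 9, 5 had both means below background, among them Foxd3, S100b and Fabp7. The gene called lower was Erbb3, a neuregulin receptor, at 8.88 to 9.23 log2 in wild type and 7.35 to 8.21 in the mutant (-1.33 log2; limma adjusted p = 0.0066). The summed level of this list was 10.18 to 10.40 log2 in wild type and 9.72 to 9.88 in the mutant. Erbb3 was the brightest of the 9 on every array and so weighs most in this sum. Mbp, the next brightest, overlapped between groups, at 7.04 to 7.33 log2 in wild type and 6.92 to 7.24 in the mutant. The part of these markers in the Sox10 values was not tested. The median difference over the 9 genes was -0.06 log2, with Ednrb at 0.27 and S100b at 0.11 log2. None of 8 cartilage genes, a tissue that depends on Sox9, passed in the limma fit (1 had an unadjusted p under 0.05), and their summed level was 10.48 to 10.50 log2 in wild type and 10.42 to 10.47 in the mutant. Among 7 genes of the mesonephros, Lhx1 was called lower (-0.96 log2) and Gata3 higher (1.20 log2). The summed level of that list was 10.09 to 10.21 log2 in wild type and 10.20 to 10.34 in the mutant. Its part in the SoxE values was not tested. Of 6 germ cell genes 1 was called lower, Dppa3 (-1.55 log2), and of 2 measured erythroid genes 1, Alas2 (-0.51 log2). Among 5 endothelial genes the limma fit called none, and 3 had an unadjusted p under 0.05.

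In the gene order of GRCm38.p6, the 3 measured genes on each side of Sox9 did not pass (limma adjusted p from 0.160 to 0.917; 1 with an unadjusted p under 0.05), with Kcnj2 and Kcnj16 below background and Slc39a11 at 8.04 and 8.01 log2. Next to Sox8, Lmf1 fell by 0.55 log2 (limma adjusted p = 0.026) and Chtf18 fell by 0.46 log2 (0.0344), while 4 other neighbours did not pass. Over all genes, 4.3% were called lower. None of 6 neighbours of Sox10 passed in the limma fit (1 with an unadjusted p under 0.05), and none of 4 of Sry (0 with such a p). Of the 4 measured neighbours of Sry, Srsy differed by 0.33 log2 (adjusted p = 0.429).

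The genes most like each of the 4 over the 6 arrays were searched among 13003 genes with a mean above background, by Pearson's r, as a description. The 2 groups set much of any such r, and all points share the same 6 arrays. For Sox9 they were Spint2, a protease inhibitor (r = 0.997), and Smagp, Dtl, Ppfibp2 and Vcam1 (r = 0.996 each). For Sox8 they were Tshz2, Eps8, Septin11, Efna5 and Ppp1r16b, with r from 0.999 down to 0.997. For Sox10 they were Mmachc, Tmco1, Jtb, Irf8 and Mbnl1, with r from 0.999 down to 0.991. For Sry they were Laptm4b, Pcbd1, B3gnt7, Elfn1 and Mtmr1, with r from 0.991 down to 0.988. Among the 4 genes themselves, r was 0.93 for Sox9 with Sox8, 0.90 for Sox9 with Sox10, 0.77 for Sox8 with Sox10, and -0.85 for Sox9, -0.92 for Sox8 and -0.57 for Sox10 with Sry.

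**Figure D5:**
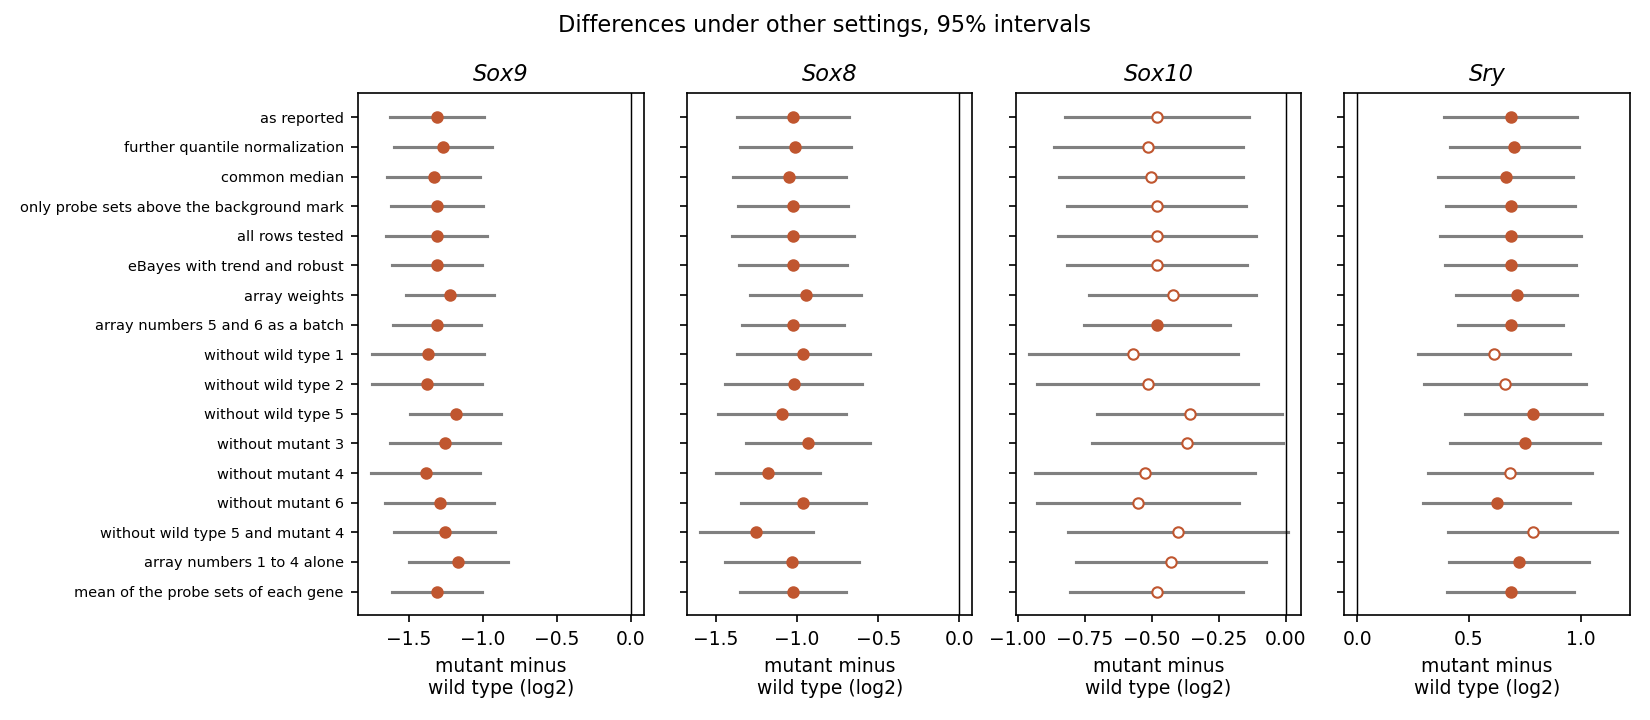
Differences of the 4 genes (mutant minus wild type, log2, with 95% intervals) as reported and under 16 other settings; filled points passed the limma threshold of 0.05. Sox9 runs from -1.39 to -1.17, Sox8 from -1.25 to -0.93, Sox10 from -0.57 to -0.36 and Sry from 0.61 to 0.79, and the interval of Sox10 crosses 0 without wild type 5 and mutant 4.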

How the data were processed

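Biotinylated targets from 300 ng total RNA were hybridised, 1 array per pool. The deposited values are log2 values that the authors made with RMA, per the submitters' processing notes; the sources used here do not give its settings. RMA makes the arrays' distributions alike, so a general change in RNA content cannot be seen. Of 34760 rows, 6573 below the lowest annotated identifier were left out as controls. Of the 28187 tested, 21640 named 1 gene, 1321 several and 5226 none, and 21553 of the first were found in RefSeq's gene table (GRCm38.p6). A gene was read from its probe set with the highest mean. The test was limma 3.58.1 under R 4.3.3 (lmFit, eBayes, 2-sided, 4 residual degrees of freedom), Benjamini-Hochberg over all probe sets, threshold 0.05. The fit was tested on simulated data with normal noise and upward changes. It recovered 50% of 200 changes of 1.5-fold and 99.5% of 200 changes of 2-fold, and called 22 unchanged probe sets. Intervals of differences between changes use the spread over the 6 arrays. List medians, summed levels (summed on the linear scale) and counts are descriptions. The 4 genes, the lists and the naming rule (list members, 5 most similar genes per gene, 3 neighbours on each side) were chosen with earlier results of these data known. The number of arrays limits the precision. The groups share no replicate number. Figures were drawn with matplotlib 3.10.9.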

Additional observations from a re-analysis of the deposited data

How the results depend on the processing

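The calls of Sox9 and Sox8 held in all 16 other settings, and that of Sry in 12. Leaving out arrays could not turn the direction of these differences, because the groups did not overlap. Several other settings changed the test and left the difference as it was, so direction is not counted here. Sox10 passed only with numbers 5 and 6 as a batch, at -0.48 log2, and the labels do not name such a batch. Sry ranged from 0.61 to 0.79 log2 when single arrays were left out and did not pass without wild type 1, wild type 2 or mutant 4. Without wild type 5 and mutant 4 Sry was 0.78 log2 without passing, the change of Sox9 minus that of Sox8 was -0.011 log2, and 1 gene upstream of Sry, 0 Y-linked genes and 604 genes in all were called by limma. With numbers 1 to 4 alone these counts were 3, 0 and 895, against 5, 1 and 1384 as reported. With all rows tested they were 3 upstream genes and 772 in all. Leaving out single arrays gave 2 to 6 upstream genes, 0 to 1 Y-linked genes and 593 to 1292 genes in all. Among probe sets above background 0 Y-linked genes were called by limma, and 0 had an unadjusted p under 0.05, since Zfy1 was not among them; in the other settings with 0, 1 or 2 had such a p. No paired analysis was possible because the groups share no replicate number. Why these counts and calls differed between settings was not tested.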
